A study of Mus musculus with 8 samples.

Results

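Expression of 37 lysosome and autophagy genes was followed through the early days of reprogramming of mouse embryonic fibroblasts (MEFs) towards induced pluripotent stem cells. The genes were chosen by name from the 32108 genes of the deposited table, and all 37 were found and passed the filter on low values. The cells were MEFs of the strain 4F2A, in which doxycycline switches on a transgene that encodes Oct4, Sox2, Klf4 and c-Myc. Per the labels the embryos were homozygous males at 13.5 days post coitum. Doxycycline was given to all cultures from day 0, at 2 µg/mL, in a medium based on serum replacement and 1000 U/mL of the cytokine LIF. The groups D2, D4, D6 and D8 are named by the day of RNA harvest and hold 2 libraries each. The titles mark all of them as controls ("Ctr"), and samples from day 0 or without doxycycline were not analysed here, so each comparison is between days of induction. Whether replicates were grown as separate cultures is not stated in the labels, so the p-values reflect the spread between these libraries, which may be technical.

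The values are CPM, reads of a gene per 1000000 counted reads of its library, as computed by the authors. The libraries held 19409936 to 20161021 counted reads, and a gene with no read could lie as high as 0.149 to 0.155 CPM (a limit of 3 reads, for counting error only). The label of male embryos was at odds with sex-linked genes: Xist, made from the inactive X chromosome, lay between 702 and 1240 CPM, and none of the Y-linked Uty, Eif2s3y, Kdm5d and Ddx3y exceeded 0.333 CPM. Each of 10 fibroblast markers reached 1 CPM in at least 1 library. Their sum was 38531.1 to 38874.7 CPM in D2, 46542.5 to 50911.8 CPM in D4, 35295.9 to 39344.8 CPM in D6 and 34089.6 to 37711.8 CPM in D8. Single markers differed: in D8 against D2, 4 rose and 4 fell, with log2 changes from -1.87 to 6.1. The shares of all tested genes were 47.3% and 23.1%. The sum of 6 epithelial markers was 7.65 to 9.78 CPM in D2, 42.7 to 50.7 CPM in D4, 114 to 140 CPM in D6 and 166 to 174 CPM in D8, while the epithelial markers Epcam and Krt18 stayed below 1 CPM. For 5 endothelial markers the sum was 68.9 to 71.4 CPM in D2 and 104 CPM in both D4 libraries. It was 147 to 159 CPM in D6 and 163 to 165 CPM in D8, while Cdh5 and Emcn stayed below 1 CPM. In bulk RNA, fewer cells of a type and less RNA per cell cannot be told apart, and the part of these marker changes in the results below was not tested.

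Lysosomes are acidic compartments in which hydrolases break down proteins, glycans and lipids delivered by endocytosis or by autophagy. In autophagy a membrane grows around cytoplasm or organelles, closes to an autophagosome and fuses with the lysosome. Its construction needs the kinase Ulk1, a lipid kinase complex around Becn1, and the conjugation proteins Atg5, Atg7 and Atg12. Tfeb and Tfe3 are transcription factors that bind E-box-like elements in the promoters of many lysosomal genes. The 37 genes were grouped by role. The 15 hydrolases were 8 cathepsins and a group of 7 that holds the glycosidases and the acid lipase. The others were 6 lysosomal membrane proteins, 3 lumenal cofactors, 2 transcription factors and 11 genes of the autophagy machinery.

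The promoters are shown because some of them hold letters that Tfeb and Tfe3 are known to bind. Which factors bind these letters in these cells was not measured. In the RefSeq windows from 250 bases before to 50 bases after a gene's start (build GRCm38.p6), the E-box CACGTG was found on either strand in 2187 of 27025 genes (8.09%), and TCACGTG, which contains it, in 1160 (4.29%). Of the 37 genes 31 had a window, and 8 of them (25.8%) held TCACGTG: Ctsa, Ctsd, Gaa, Gla, Glb1, Lamp1, Mcoln1 and Atg7. The share was 5 of 13 for the hydrolases (38.5%) and 1 of 8 for the autophagy machinery (12.5%). With CACGTG alone it was 6 of 13 (46.2%) and 2 of 8 (25%). The lines below give stretches of 30 bases, 5′ to 3′ on the gene's strand, with TCACGTG or its reverse complement CACGTGA in capitals, and TCACGTGA where both overlap.
Ctsd (chr7:142387908-142387937, minus strand): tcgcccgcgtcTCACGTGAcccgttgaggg
Gaa (chr11:119267811-119267840, plus strand): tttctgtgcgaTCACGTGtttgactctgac
Gla (chrX:134601182-134601211, minus strand): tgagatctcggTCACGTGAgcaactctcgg
Glb1 (chr9:114401018-114401047, plus strand): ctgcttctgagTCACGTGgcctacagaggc
Lamp1 (chr8:13159088-13159117, plus strand): agggcaagataTCACGTGgtccagcgccca
Mcoln1 (chr8:3500462-3500491, plus strand): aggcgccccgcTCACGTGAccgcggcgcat
Atg7 (chr6:114670952-114670981, plus strand): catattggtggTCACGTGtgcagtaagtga
Lamp1 held 4 such sites, and Ctsa, Ctsd, Gla and Mcoln1 held 2 each. The windows of a pair of cathepsins that moved in opposite directions follow whole. The window of Ctsk, which rose, held no CACGTG, while the window of Ctsa, which fell, held 2 sites in capitals. It belongs to one of 2 annotated starts of Ctsa, and the other window held none. Other members did not all follow this pair. The windows of Ctss and Ctsz, which also fell in D8 against D2, held no CACGTG, and Mcoln1, with 2 sites, rose. Counts over all windows are given below with the transcription factors.
Ctsk (chr3:95498960-95499259, plus strand): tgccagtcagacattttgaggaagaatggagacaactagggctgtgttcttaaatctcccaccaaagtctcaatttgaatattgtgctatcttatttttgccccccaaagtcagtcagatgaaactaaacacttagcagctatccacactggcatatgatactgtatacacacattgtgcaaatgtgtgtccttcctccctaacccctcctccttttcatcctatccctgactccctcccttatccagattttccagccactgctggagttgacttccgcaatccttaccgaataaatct
Ctsa (chr2:164833523-164833822, plus strand): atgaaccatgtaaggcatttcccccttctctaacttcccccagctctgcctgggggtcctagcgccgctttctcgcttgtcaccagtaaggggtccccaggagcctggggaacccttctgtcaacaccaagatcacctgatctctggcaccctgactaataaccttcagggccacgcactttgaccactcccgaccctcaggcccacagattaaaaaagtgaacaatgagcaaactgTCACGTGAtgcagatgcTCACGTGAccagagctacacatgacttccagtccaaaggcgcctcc
A match of letters is a description of the window and not a measured binding site.

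Over the whole interval from D2 to D8, more of the 37 genes fell than rose, while more of all tested genes rose than fell on the deposited scale. In D8 against D2, 11 genes rose and 17 fell in limma's test with Benjamini-Hochberg adjustment over 15358 tested genes (adjusted p under 0.05). Of all tested genes 47.3% rose and 23.1% fell. With median-of-ratios scaling 5 of the 37 rose and 22 fell. With quantile normalization 9 of the 37 rose and 18 fell, and more of all tested genes fell (5876) than rose (4819). The median change of the 37 genes was -0.06 on the scale of log2(CPM + 1), and that of all tested genes was 0.17. Ctsk (cathepsin K), Scarb2, Ulk1 and Tfeb had the largest rises, and Ctsh, Psap, Ctss, Cd63 and Lamp1 the largest falls. Any difference between the 4 days was called for 32 of the 37 genes (limma F test), and for 80.4% of all tested genes. The exceptions were Ctsd, Ctss, Neu1, Atg7 and Atg12.

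**Figure D1:**
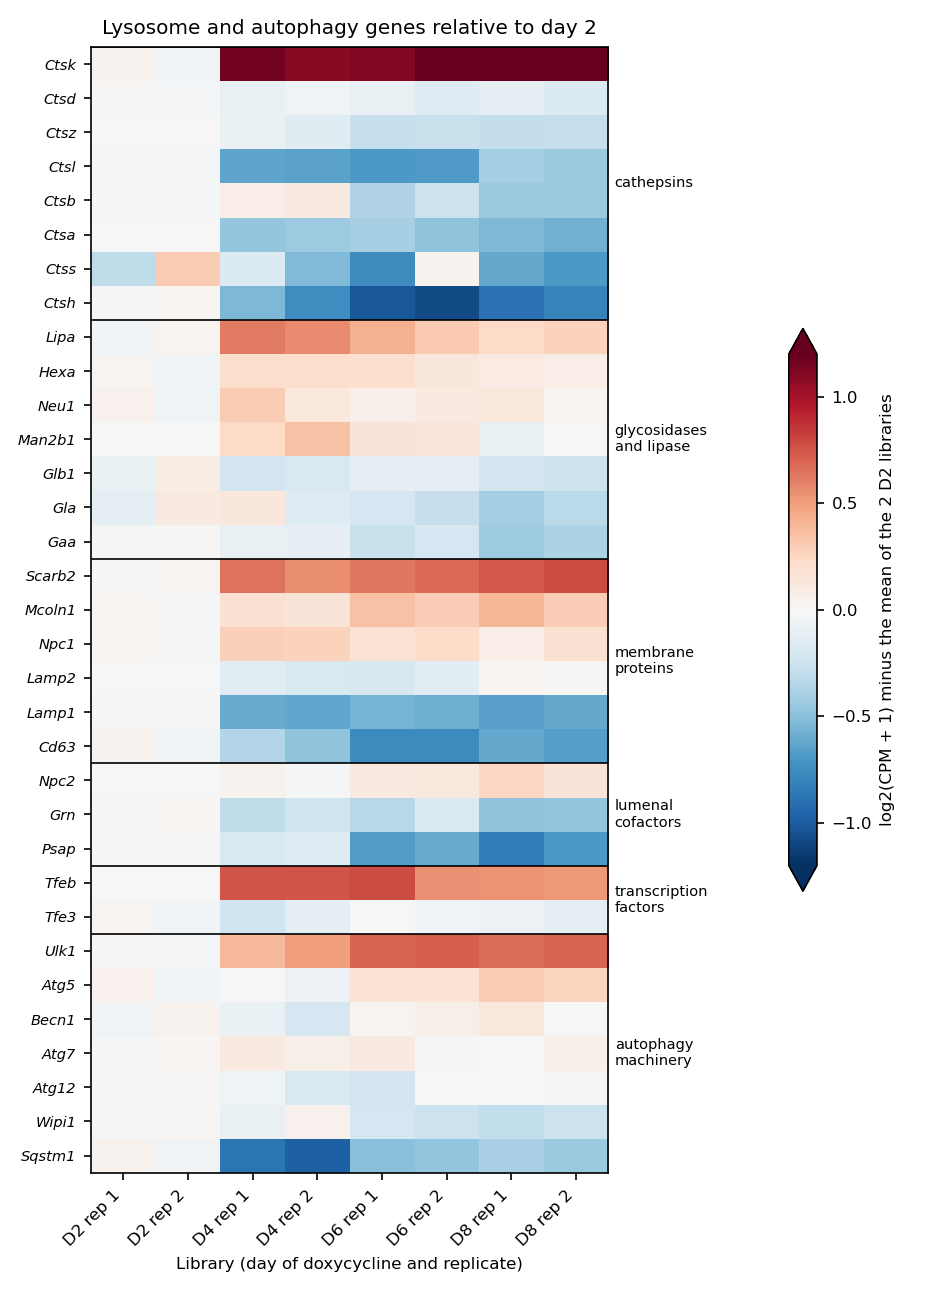
Colour shows log2(CPM + 1) of each gene reported singly (rows, grouped by role) in each of the 8 libraries (columns), minus the mean of the 2 D2 libraries. The row of Ctsk is the strongest red from D4 on, and most other cathepsin rows are blue by D8.

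The 15 hydrolases and the 11 genes of the autophagy machinery took different courses. In D8 against D2, 2 of 15 hydrolases rose and 10 fell, with a median change of -0.28. In the same comparison 4 of 11 autophagy genes rose and 3 fell, with a median of 0.03. The shares of all tested genes were 47.3% and 23.1%, with a median of 0.17. The gap, hydrolase median minus autophagy median, was -0.315, a difference between 2 short lists that is described and not tested. Its SD was 0.0274, the root of the summed squares of 2 SDs. Each was taken between the 2 libraries of a day, centred on the mean of that day. Without D2 replicate 2 the hydrolases that fell numbered 6. In each library, the hydrolase median relative to the D2 mean was -0.082 and -0.094 in D4, -0.20 and -0.15 in D6, and -0.285 and -0.28 in D8. The autophagy median was -0.084 and -0.18 in D4, 0.03 and -0.0018 in D6, and 0.016 and -0.0092 in D8. Both medians stood lower in D4 than in D2. In D6 against D4, none of the 15 hydrolases rose and 6 fell (median -0.125), while 6 of 11 autophagy genes rose and 1 fell (median 0.19). Over all tested genes 25.2% rose and 12.6% fell in that step. Of 29 further genes of the autophagy machinery, outside the 37, 6 rose and 5 fell in D6 against D4 (median 0.0081, beside 0.0686 for all tested genes). Among 30 further hydrolases, also outside the 37, 2 rose and 11 fell in D6 against D4 (median -0.084). In D8 against D2, 11 of these 30 rose and 12 fell (median -0.05). At an unadjusted p under 0.05, 7 of the 15 hydrolases differed in D6 against D4. The hydrolases that fell numbered 3 without D6 replicate 1, without D6 replicate 2 or in a fit on D4 and D6 alone, and the autophagy genes that rose numbered 4 without D4 replicate 2 or D6 replicate 1 and with either other scaling. The sign of the autophagy median in D8 against D2 depended on scaling: it was -0.15 with median-of-ratios scaling and -0.04 with quantile normalization, where the hydrolase medians were -0.465 and -0.298. With median-of-ratios scaling, 1 autophagy gene rose and 5 fell.

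**Figure D2:**
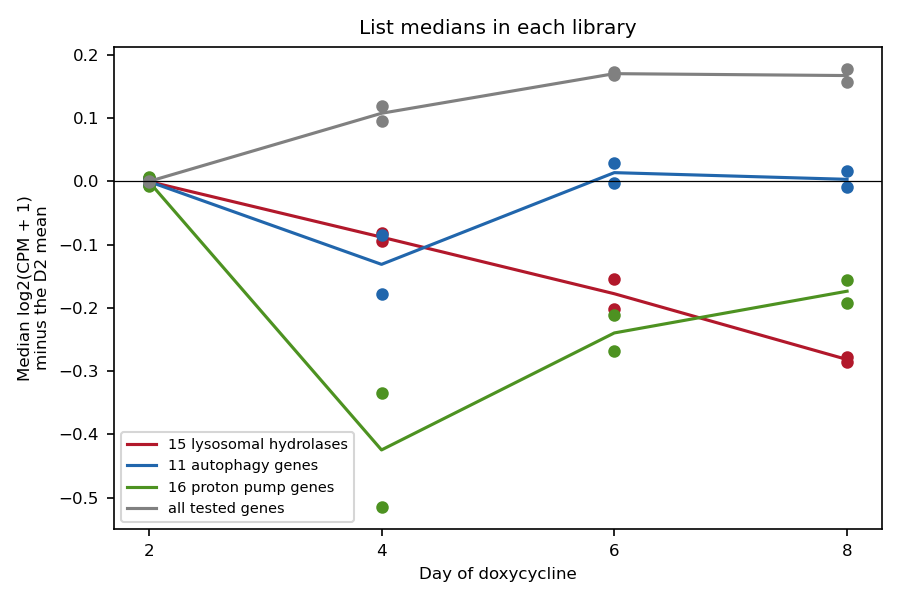
Points give, for each library, the median over a list of log2(CPM + 1) minus the mean of the D2 libraries, against the day of doxycycline, and lines join the means of the days. The hydrolases end at -0.285 and -0.28 in D8, the autophagy genes at 0.016 and -0.0092, and the proton pump genes reach their lowest point in D4.

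The step from D2 to D4 held more calls than the later steps. In D4 against D2, 10 of the 37 genes rose and 15 fell, beside 40.9% and 21.7% of all tested genes. In D6 against D4, 7 rose and 9 fell, beside 25.2% and 12.6%. In D8 against D6, 3 rose and 3 fell, beside 4.72% and 4.39%. In D4 against D2, 5 hydrolases rose and 5 fell, and 1 autophagy gene rose and 4 fell. With median-of-ratios scaling 3 hydrolases rose and 7 fell in that step, and 7 autophagy genes fell with either other scaling. Without D2 replicate 2, 3 hydrolases fell. In D8 against D6, 2 hydrolases rose and 2 fell. The falls were those of Gaa and Man2b1, and neither was called with no filter, with median-of-ratios scaling, in a fit on D6 and D8 alone, or without any 1 of the D2, D6 or D8 libraries. No autophagy gene was called in that step with limma, where 1 of 11 had an unadjusted p under 0.05.

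The cathepsins are proteases of the lysosome. Of the 8 chosen here, 1 rose and 7 fell in D8 against D2 (median -0.44), beside 47.3% and 23.1% of all tested genes. The falls of Ctsd and Ctss were lost under some alternatives, as given below. Among these 8, Ctsk, a collagen-degrading cysteine protease best known from osteoclasts, was the exception. Of the cathepsins outside them, Ctsf and Ctso also rose in D8 against D2 (log2 changes 1.17 and 1.19) and Ctsc fell (-1.57). Ctsk (chromosome 3, 95499256 to 95509362 in GRCm38) had 55.9 and 52.7 CPM in D2, 122 and 117 in D4, 119 and 126 in D6, and 148 and 163 in D8. Every later library exceeded both D2 libraries, and both D8 libraries exceeded all D6 libraries. The mean was 156 ± 10.3 CPM in D8, against 54.3 ± 2.23 CPM in D2 (SD, n = 2 each), a 2.87-fold difference (1.501 on the log2 scale, SE 0.059, limma adjusted p = 9.0e-11). Most of it was present in D4, where the log2 change against D2 was 1.12 (limma adjusted p = 3.0e-09). A further rise of 0.34 in D8 against D6 (limma adjusted p = 0.0045) was lost when genes with low values were kept in the fit (adjusted p = 0.064).

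Ctsh, a cysteine aminopeptidase, had the largest fall of the 37 genes in D8 against D2 on the log2 scale. Ctsh (chromosome 9, 90054152 to 90076089) had 22.3 and 23.0 CPM in D2, 15.3 and 13.1 in D4, 10.7 and 10.2 in D6, and 11.8 and 12.6 in D8. It fell in both of the first steps, by 0.64 in D4 against D2 and by 0.40 in D6 against D4 on the log2 scale. Its D8 level was 0.538 times its D2 level (limma adjusted p = 2.2e-06), with no overlap between the libraries of the days.

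Ctsl and Ctsb, cysteine proteases of broad specificity, fell at different times. Ctsl (chromosome 13, 64359337 to 64370890) had 485 and 478 CPM in D2, 310.1 and 309 in D4, 299 and 299.9 in D6, and 363 and 353 in D8. It fell in D4 against D2 (by 0.64 on the log2 scale, limma adjusted p = 4.6e-08) and rose again in D8 against D6 (by 0.26, limma adjusted p = 0.0045). Ctsb (chromosome 14, 63122462 to 63145923) had 793 and 781 CPM in D2, 830.5 and 846 in D4, 613 and 659 in D6, and 577 and 577 in D8. Both D4 libraries were above the D2 libraries, without passing the test (limma adjusted p = 0.13), and the gene fell in D6 against D4, by 0.40 (limma adjusted p = 5.7e-05). Of its exon bases, 12.8% overlap exons of Fdft1 on the other strand, at 52.7 to 157 CPM in these libraries. Whether the counting used strand is not given in the sources used here.

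Ctsa, the carboxypeptidase that protects beta-galactosidase and sialidase in a complex, carries the E-box sites printed above. Ctsa (chromosome 2, 164832873 to 164841032) had 319 and 316 CPM in D2, 229.9 and 234 in D4, 239.9 and 227 in D6, and 218 and 212 in D8. Most of its fall was present in D4, with a log2 change of -0.45 in D4 against D2 and -0.56 in D8 against D2 (limma adjusted p = 1.7e-07), and its exons overlap those of Pltp (31.4 to 78.1 CPM) over 10.5% of their bases. Ctsz, an exopeptidase, had 125 and 126 CPM in D8, against 153 and 152 CPM in D2, a fall of 0.28 on the log2 scale (limma adjusted p = 0.0001). Ctsd, the main aspartic protease of the lysosome, had the highest level per kilobase of exon among the 37 genes on every day. It had 1148 and 1120.0 CPM in D2, 1066 and 1096 in D4, 1068 and 1019 in D6, and 1050.3 and 1009.8 in D8. Its fall in D8 against D2 was small (-0.14 on the log2 scale, limma adjusted p = 0.029), and the change was 0.12 with quantile normalization. The call was also lost with no filter on low values and without D2 replicate 1, D2 replicate 2 or D8 replicate 2, and the adjusted p over the alternatives ranged from 0.00014 to 0.19.

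Ctss, the protease of antigen-presenting cells, had the lowest level per kilobase of the cathepsins. In CPM, Ctss had 3.03 and 5.18 CPM in D2, 3.45 and 2.46 in D4, 1.95 and 4.14 in D6, and 2.27 and 2.10 in D8. One D2 library stood above all others, and the libraries of neighbouring days overlapped. The call in D8 against D2 (log2 change -0.65, SE 0.24, limma adjusted p = 0.027) was lost with no filter on low values and without D2 replicate 2, D8 replicate 1 or D8 replicate 2, where the highest adjusted p was 0.29. The 20 markers of macrophages and other blood cells summed to 119.8 to 163 CPM in D2, 159.8 to 165 CPM in D4, 164 to 186 CPM in D6 and 128 to 145 CPM in D8. Of 19 tested, 4 rose and 5 fell in D8 against D2, beside 47.3% and 23.1% of all tested genes. None of the 20 was at 0 in every library (Aif1 stayed below 1 CPM). The part of these markers in the level of Ctss was not tested.

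Of the glycosidases and the acid lipase, more rose than fell in D4 and more fell than rose by D8. In D4 against D2, 4 of the 7 rose and 1 fell (median 0.21), and in D8 against D2, 1 rose and 3 fell (median -0.04; 1 fell without D2 replicate 2). With median-of-ratios scaling 2 rose and 2 fell in D4 against D2. On the deposited scale 40.9% of all tested genes rose and 21.7% fell in that step. More rises than falls in D4 were thus not particular to these 7. The shares of all tested genes in D8 against D2 were 47.3% and 23.1%. Lipa, the acid lipase that frees cholesterol and fatty acids from lipoproteins, had 73.3 and 77.2 CPM in D2, 117 and 112 in D4, 101 and 93.7 in D6, and 89.2 and 91.5 in D8. It rose by 0.60 on the log2 scale in D4 against D2 (limma adjusted p = 7.9e-07) and fell by 0.23 in D6 against D4 (limma adjusted p = 0.0061). Both D8 libraries of Lipa lay between the D2 and the D4 libraries. The D6 call was lost without D6 replicate 2 (adjusted p = 0.066), and the rise of 0.26 in D8 against D2 was lost with median-of-ratios scaling (adjusted p = 0.21).

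Man2b1, the lysosomal alpha-mannosidase, also rose in D4 against D2. Man2b1 had 122 and 122 CPM in D2, 145 and 156 in D4, 135 and 135 in D6, and 115 and 122 in D8. The D4 libraries were the highest and the D8 libraries overlapped those of D2 (D8 against D2, log2 change -0.04, limma adjusted p = 0.52). Hexa, which degrades gangliosides, and the sialidase Neu1 also rose in D4 against D2, by 0.21 and 0.21, and were not called in D8 against D2 (0.09, 95% interval -0.02 to 0.19, and 0.08, 95% interval -0.10 to 0.25). The calls of Hexa and Neu1 in D4 against D2 were lost with median-of-ratios scaling (adjusted p = 0.10 and 0.26). That of Neu1 was also lost with no filter, with quantile normalization, in a fit on D2 and D4 alone and without D2 replicate 2 or D4 replicate 1.

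Gaa, the acid alpha-glucosidase that degrades glycogen, fell over the later days. Gaa had 222 and 225 CPM in D2, 211 and 209 in D4, 186 and 193 in D6, and 165 and 171 in D8. No library of D8 reached the level of any earlier library, and the log2 change in D8 against D2 was -0.41 (limma adjusted p = 3.3e-06). Gla, the alpha-galactosidase A encoded on the X chromosome, had 20.1 and 21.2 CPM in D8, against 24.9 and 29.1 CPM in D2, a fall of 0.37 on the log2 scale (limma adjusted p = 0.0051). Glb1, the acid beta-galactosidase whose activity is a common stain for senescent cells, had 69.8 and 68.2 CPM in D8, against 76.7 and 86.4 CPM in D2, a fall of 0.24 (limma adjusted p = 0.0032). For both genes D2 replicate 2 was the higher D2 library, and without it the adjusted p in D8 against D2 was 0.076 for Gla and 0.073 for Glb1.

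Of the 6 membrane proteins, 3 rose and 2 fell in D8 against D2 (median 0.08, and -0.107 with median-of-ratios scaling), shares near the 47.3% and 23.1% of all tested genes. Lamp1, a main glycoprotein of the lysosomal membrane, had 931 and 954 CPM in D2, 618 and 611 in D4, 638 and 629 in D6, and 599 and 614 in D8. The fall was present in D4 (-0.62 on the log2 scale, limma adjusted p = 1.1e-07), and the D8 mean was 0.644 times the D2 mean (limma adjusted p = 4.8e-08). Scarb2, a membrane protein that carries glucocerebrosidase to the lysosome, went the other way. Scarb2 (chromosome 5, 92441314 to 92506833) had 124 and 129 CPM in D2, 199 and 187 in D4, 197 and 204 in D6, and 211 and 219 in D8, and its D8 mean was 1.70 times its D2 mean (0.76 on the log2 scale, limma adjusted p = 1.4e-08). Both genes had thus moved in D4, in opposite directions, with no overlap between the D4 and D2 libraries.

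Lamp2, the relative of Lamp1 that also serves chaperone-mediated autophagy, was not called in D8 against D2. Lamp2 had 490.1 and 494 CPM in D2, 448 and 433 in D4, 430.4 and 449 in D6, and 499 and 498 in D8. The D8 and D2 levels were close (log2 change 0.02, 95% interval -0.08 to 0.12). The call depended on scaling: Lamp2 was lower in D8 with median-of-ratios scaling (-0.165, adjusted p = 0.0073) and higher with quantile normalization (0.169, adjusted p = 0.004). In D4 against D2 it fell by 0.16 (limma adjusted p = 0.0091), a call lost with quantile normalization (0.0285, adjusted p = 0.59) and without D2 replicate 1 or D2 replicate 2. Cd63, a tetraspanin of late endosomes and exosomes, had 475 and 451 CPM in D2, 362 and 331 in D4, 272 and 273 in D6, and 301 and 293 in D8. It fell in D4 against D2 and again in D6 against D4, and its D8 mean was 0.642 times its D2 mean (limma adjusted p = 1.6e-07). The pseudogene Cd63-ps was listed at 44.3 to 74.7 CPM, so the division of reads between the copies is uncertain. Mcoln1, the calcium channel TRPML1 of the lysosomal membrane, had 55.4 and 51.3 CPM in D8, against 42.4 and 40.8 CPM in D2, a rise of 0.35 (limma adjusted p = 0.00015).

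The cholesterol exporters and the cofactors of lipid degradation did not move together. Npc1 and Npc2 hand cholesterol out of the lysosome in sequence, Npc1 in the membrane and Npc2 in the lumen. Npc1 had 66.7 and 71.8 CPM in D8, against 63.9 and 62.0 CPM in D2, a rise of 0.13 (limma adjusted p = 0.041), and Npc2 had 295 and 276 CPM in D8, against 248 and 247 CPM in D2, a rise of 0.20 (limma adjusted p = 0.0022). Both calls were lost with median-of-ratios scaling, where the change of Npc1 was -0.048 and that of Npc2 was 0.018. That of Npc1 was also lost with quantile normalization and without D2 replicate 1, D2 replicate 2 or D8 replicate 2. Psap, the precursor of the saposins that present sphingolipids to hydrolases, had 956 and 939 CPM in D2, 836 and 853 in D4, 596 and 624 in D6, and 529.6 and 589 in D8. Its larger fall came in D6 against D4 (-0.47 on the log2 scale, limma adjusted p = 4.0e-05), and the D8 mean was 0.590 times the D2 mean (limma adjusted p = 5.5e-08). Grn, progranulin, which is cut to granulins in the lysosome, had 212 and 214 CPM in D8, against 289.8 and 301 CPM in D2, a fall of 0.47 (limma adjusted p = 4.8e-06).

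**Figure D3:**
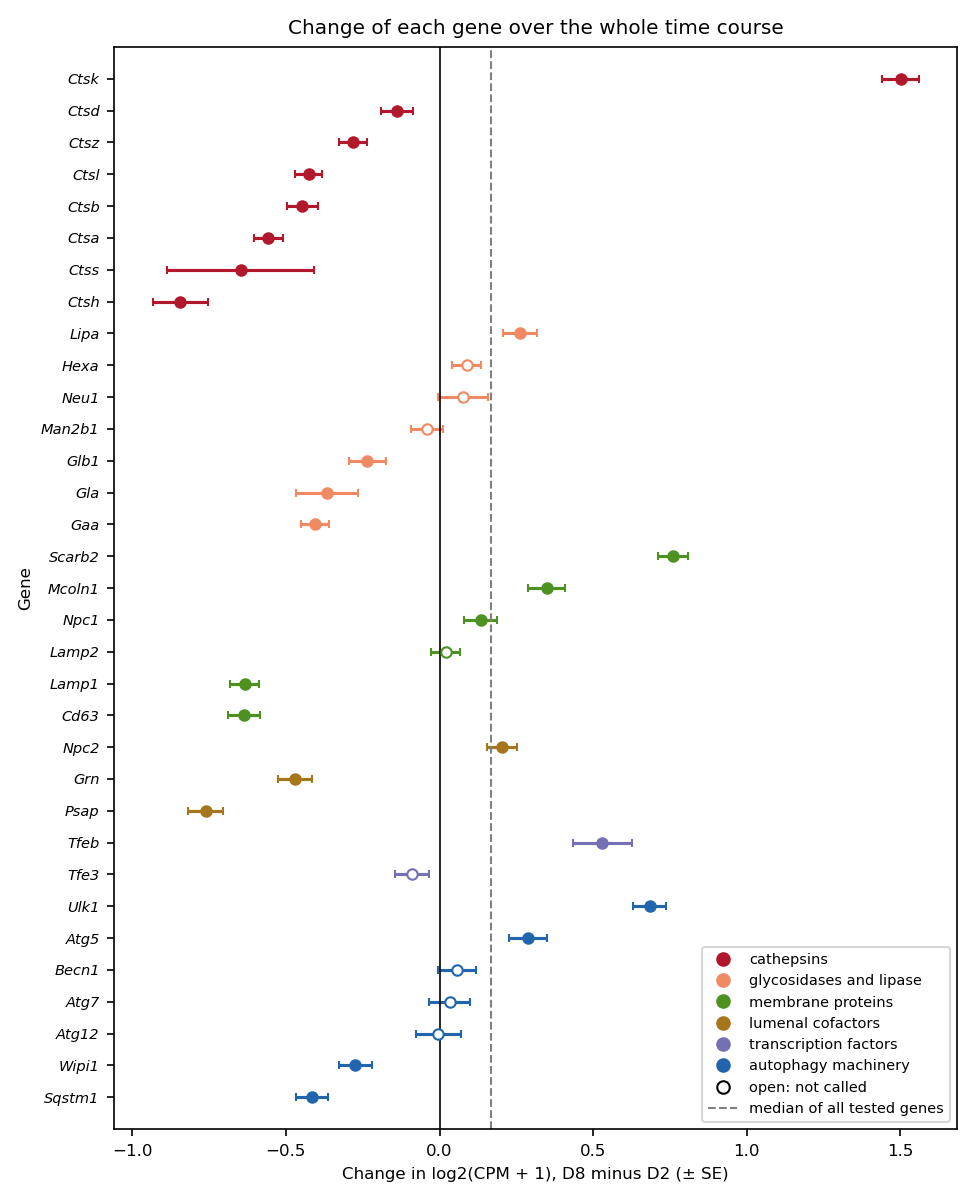
Points give the change in log2(CPM + 1) of each gene reported singly, D8 minus D2, with bars of 1 SE from limma. Colours mark the role, open points were not called, and the dashed line is the median of all tested genes (0.17). Ctsk lies farthest right at 1.501 and Ctsh farthest left at -0.84.

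Of the transcription factors, Tfeb rose in D8 against D2 and Tfe3 was not called. Tfeb had 7.19 and 7.17 CPM in D2, 12.8 and 12.8 in D4, 13.1 and 10.998 in D6, and 10.9 and 10.7 in D8. With Ctss it had the lowest levels per kilobase of exon among the 37 genes. Every later library exceeded both D2 libraries, with a log2 change of 0.76 in D4 against D2 (limma adjusted p = 1.6e-05) and 0.53 in D8 against D2 (limma adjusted p = 0.00027). The D8 call was lost with quantile normalization, where the change was 0.135 (adjusted p = 0.22). Tfe3 stayed between 79.2 and 95.8 CPM, and its D8 level did not differ from D2 past the threshold (log2 change -0.09, 95% interval -0.21 to 0.03). Tfe3 was called lower in D8 against D2 with median-of-ratios scaling (-0.272, adjusted p = 0.0011) and with quantile normalization (-0.177, adjusted p = 0.016). Among the 8 genes whose promoter window held TCACGTG, 1 rose and 6 fell in D8 against D2, with a median change of -0.30. Without D2 replicate 2, 3 of these fell. Among the other 23 with a window, 9 rose and 8 fell, with a median of 0.02. With median-of-ratios scaling 4 of the 23 rose and 12 fell (median -0.165), and 1 of the 8 rose and 6 fell (median -0.481). On the deposited scale 47.3% of all tested genes rose and 23.1% fell in D8 against D2 (median 0.17). Of the 8 genes with TCACGTG, 5 are hydrolases already counted above, so this split is not separate from that by role. The counts are over genes chosen by name, with no test.

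Ulk1, the kinase that starts autophagosome formation, rose most in the autophagy machinery. Ulk1 (chromosome 5, 110784488 to 110810097) had 60.1 and 58.5 CPM in D2, 77.9 and 84.6 in D4, 96.9 and 98.3 in D6, and 95.3 and 96.6 in D8. The days D2, D4 and D6 did not overlap, and the D8 libraries lay just below those of D6. The D8 mean was 1.62 times the D2 mean (0.68 on the log2 scale, limma adjusted p = 8.6e-08).

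Sqstm1 (p62), the receptor that carries ubiquitinated cargo into autophagosomes and is degraded with it, had the largest fall of the 37 genes in D4 against D2. Sqstm1 (chromosome 11, 50199366 to 50210827) had 486 and 458 CPM in D2, 256 and 239 in D4, 334 and 339 in D6, and 361 and 347 in D8. The D4 mean was 0.524 times the D2 mean (limma adjusted p = 5.3e-09), and the gene rose by 0.44 on the log2 scale in D6 against D4 (limma adjusted p = 3.0e-05). In D8 it stood at 0.749 times its D2 level, and no D8 library reached a D2 library. Exons of Mrnip on the other strand overlap 17.3% of its exon bases, at 1.12 to 2.40 CPM.

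Atg7, the activating enzyme, stayed between 31.9 and 35.2 CPM, and Atg12 between 45.8 and 54.5 CPM. Neither was called in any of the 4 comparisons with limma on the deposited scale. Atg12 was called lower in D4 against D2 with median-of-ratios scaling (-0.226, adjusted p = 0.016) and quantile normalization (-0.221, adjusted p = 0.023), and in D8 against D2 with median-of-ratios scaling (-0.186, adjusted p = 0.036). Atg7 was called lower in D8 against D2 with quantile normalization (-0.184, adjusted p = 0.025). Atg5, to which Atg12 is joined, had 42.3 and 41.3 CPM in D8, against 35.3 and 32.9 CPM in D2, a rise of 0.29 (limma adjusted p = 0.0011) that was lost with median-of-ratios scaling and quantile normalization, where the highest adjusted p was 0.26. Becn1, the scaffold of the lipid kinase complex, had 85.4 and 77.8 CPM in D8, against 75.8 and 80.9 CPM in D2 (log2 change 0.06, 95% interval -0.08 to 0.19), and 43.9% of its exon bases overlap exons of Cntd1 on the other strand (14.8 to 19.6 CPM). Wipi1, which binds the lipid made by that complex, had 92.3 and 94.7 CPM in D8, against 112 and 114 CPM in D2, a fall of 0.27 (limma adjusted p = 0.00055).

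**Figure D4:**
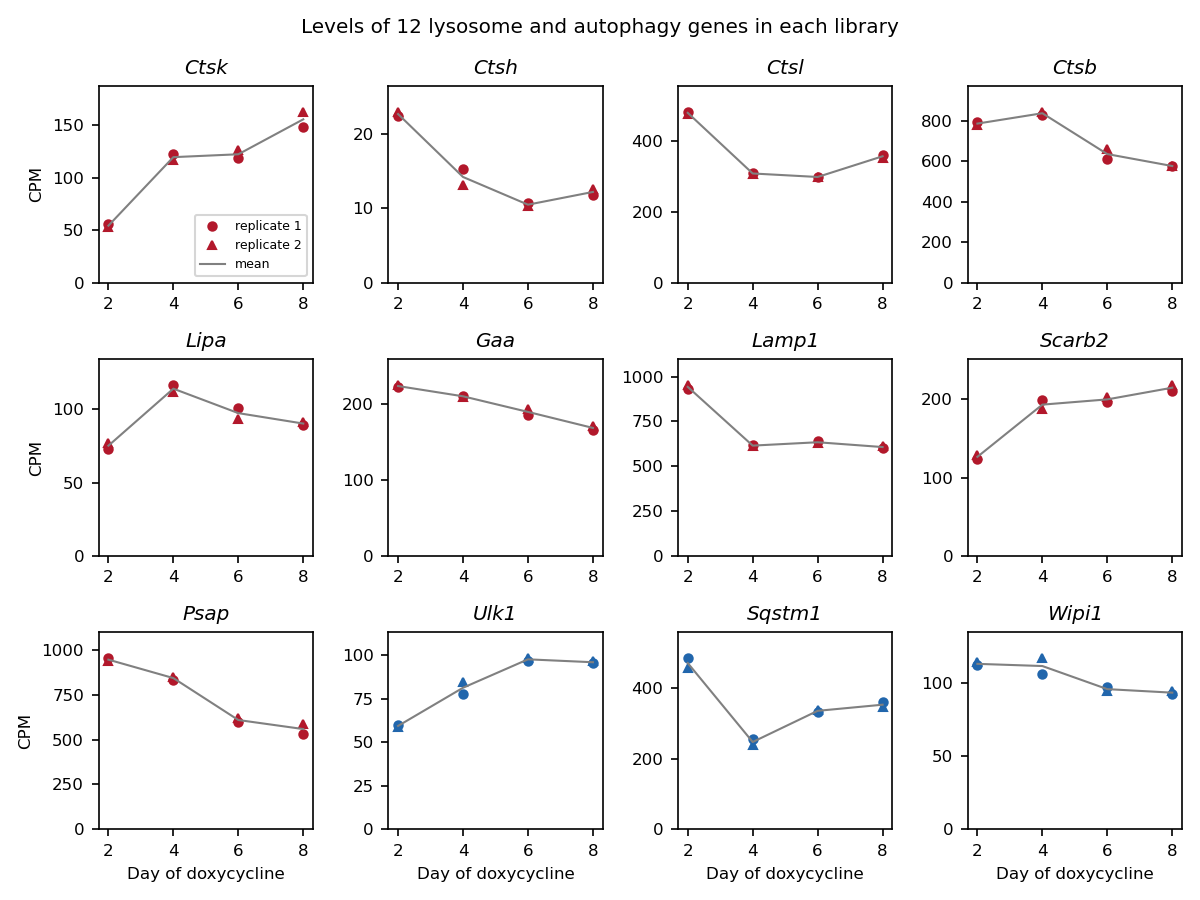
CPM of 12 genes against the day of doxycycline, with each replicate as a point and the mean of the day as a grey line. Red marks lysosomal genes and blue autophagy genes, and each axis starts at 0. Sqstm1 has its lowest point in D4, at 239 CPM, while Ctsk, Scarb2 and Lipa are above their D2 levels from D4 on.

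Divided by exon length, the members covered a wide range of levels. Ctsd stood at 438 CPM per kilobase in D8 and 482 in D2, followed by Lamp1 with 227 and 352 and Psap with 204 and 345. Ctsk stood at 103 CPM per kilobase in D8 and 35.9 in D2. In D8 it thus exceeded Ctsb (95.4) and Ctsz (86.9), which were above it in D2 (130.1 and 106).

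Other genes of the pathway, taken from lists by function, gave a fuller view of each class. Of 30 further hydrolases, 11 rose and 12 fell in D8 against D2 (median -0.05), and 16 rose and 7 fell in D4 against D2 (median 0.14). Over all tested genes 47.3% rose and 23.1% fell in D8 against D2 (median 0.17). The shares were 40.9% and 21.7% in D4 against D2 (median 0.107). With the 15 described above, 13 of 45 hydrolases rose and 22 fell in D8 against D2 (median -0.14). The proteases again showed the ends of the range. Ctso and Ctsf, cysteine cathepsins, rose 2.42-fold and 2.29-fold in D8 against D2 (limma adjusted p = 2.1e-08 and 1.1e-08). Ctsc, the dipeptidyl peptidase that activates granule proteases of immune cells, had 138 and 127 CPM in D2, 94.0 and 103 in D4, 51.0 and 56.7 in D6, and 43.0 and 44.6 in D8. It fell in each of the 3 steps, and its D8 level was 0.331 times its D2 level (limma adjusted p = 1.9e-10). Galc, which degrades galactosylceramide, had 15.3 and 17.0 CPM in D8, against 27.3 and 26.1 CPM in D2.

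The proton pump that acidifies the lysosome fell nearly as a whole in D4. Of 16 genes of the V-ATPase and its accessory proteins, none rose and 15 fell in D4 against D2 with limma (15 at an unadjusted p under 0.05), with a median change of -0.45. The exception was Atp6v0a2 (log2 change 0.09, limma adjusted p = 0.12). Between 13 and 15 fell under each alternative run. In D6 against D4, 8 rose and none fell (9 at an unadjusted p under 0.05). That count was 2 without D4 replicate 2 or D6 replicate 1, 3 with no filter or with median-of-ratios scaling, and 5 with quantile normalization. In D8 against D2, 10 fell and none rose (median -0.18), a count of 6 without D8 replicate 2 and of 15 with median-of-ratios scaling. Atp6ap1, an accessory subunit, had 238 and 243 CPM in D8, against 364 and 359 CPM in D2, and Atp6v0c, the subunit of the proton-conducting ring, had 124 and 114 CPM in D8, against 174 and 168 CPM in D2. Over all tested genes 40.9% rose and 21.7% fell in D4 against D2. The shares were 25.2% and 12.6% in D6 against D4, and 47.3% and 23.1% in D8 against D2. The proton pump also acidifies endosomes and secretory vesicles, so its genes are not particular to the lysosome.

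Of 9 genes of mannose 6-phosphate sorting, the route by which new hydrolases reach the lysosome, 3 rose and 2 fell in D8 against D2, beside 47.3% and 23.1% of all tested genes. Without D2 replicate 1 or D2 replicate 2, 1 fell, and with either other scaling 2 rose and 5 fell. In D4 against D2, 5 rose and none fell with limma (3 and 2 with median-of-ratios scaling, 3 and 1 with quantile normalization). The shares of all tested genes in that step were 40.9% and 21.7% on the deposited scale. Igf2r, the large mannose 6-phosphate receptor, had 547 and 556 CPM in D2, 814 and 879 in D4, 434 and 452 in D6, and 315 and 368 in D8. It rose by 0.62 on the log2 scale in D4 against D2 and fell by 0.93 in D6 against D4 (limma adjusted p = 3.7e-06 and 5.9e-07). Gnptab, the transferase that makes the mannose 6-phosphate tag, had 90.6 and 103 CPM in D8, against 66.2 and 66.5 CPM in D2, a rise of 0.53 (limma adjusted p = 2.6e-06).

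Of 29 further genes of the autophagy machinery, 14 rose and 6 fell in D8 against D2 (median 0.195, beside 0.17 for all tested genes), shares close to the 47.3% and 23.1% of all tested genes. The counts were 8 and 11 with median-of-ratios scaling, and 7 and 10 with quantile normalization. Pik3c3, the catalytic subunit of the lipid kinase complex, had 40.8 and 38.3 CPM in D8, against 24.0 and 24.9 CPM in D2 (limma adjusted p = 6.2e-07). Vmp1 had the largest called fall of this list, with a log2 change of -0.41 (limma adjusted p = 1.9e-05). Of 11 further autophagy receptors 7 rose and 3 fell (median 0.32). Calcoco1, a receptor for the endoplasmic reticulum, had 80.9 and 87.4 CPM in D8, against 48.6 and 42.8 CPM in D2. Bnip3, which marks mitochondria for autophagy and responds to hypoxia, had 59.4 and 59.7 CPM in D2, 8.57 and 6.30 in D4, 5.36 and 7.36 in D6, and 7.73 and 6.79 in D8, and every library after D2 lay far below the D2 libraries (D8 against D2, 0.122 times, limma adjusted p = 8.2e-10).

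Among 19 tested genes of the Tfeb family and of lysosomal nutrient sensing, 6 rose and 6 fell in D8 against D2 (Tfec, the remaining member of the list, did not pass the filter). With quantile normalization 2 rose and 6 fell, and with median-of-ratios scaling 4 rose and 8 fell. On the deposited scale 47.3% of all tested genes rose and 23.1% fell. Slc38a9, the lysosomal arginine sensor, had 26.2 and 23.3 CPM in D8, against 12.4 and 12.7 CPM in D2, a rise of 0.92 (limma adjusted p = 2.3e-07). Rragd, a Rag GTPase that recruits mTORC1 and Tfeb to the lysosome, had 10.1 and 10.3 CPM in D2, 3.05 and 2.48 in D4, 4.61 and 4.76 in D6, and 4.12 and 4.74 in D8, a fall of 1.05 in D8 against D2 (limma adjusted p = 2.4e-06). Mitf, a relative of Tfeb, rose by 0.50 in that comparison (limma adjusted p = 0.00083), a call lost with quantile normalization (adjusted p = 0.51).

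The scale of the values bears on the counts of rises and falls. With the deposited CPM, 65.3% of the called genes were higher in D4 against D2, 66.7% in D6 against D4 and 67.2% in D8 against D2. With median-of-ratios scaling these shares were 52%, 48.7% and 51.4%, and with quantile normalization 47.1%, 47.7% and 45.1%. The median of all tested genes in D8 against D2 was 0.17 as deposited and 0.0007 with median-of-ratios scaling, so a member that kept its CPM stood below the median gene. Of the 28 calls among the 37 genes in D8 against D2, 17 were kept under every alternative, among them the rises of Ctsk, Mcoln1, Scarb2 and Ulk1 and the falls of Cd63, Ctsa, Ctsb, Ctsh, Ctsl, Ctsz, Gaa, Grn, Lamp1, Psap, Sqstm1 and Wipi1. Of the calls in the single steps, 15 of 25 in D4 against D2, 8 of 16 in D6 against D4 and 1 of 6 in D8 against D6 (Ctsl) were kept.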

How the data were processed

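Per the labels, TRIzol extracts of total RNA were sequenced on the BGISEQ-500 platform, giving 8 libraries, 2 each of D2, D4, D6 and D8. The submitters' processing notes name Trimmomatic 0.39, featureCounts and the build mm10, and how reads were aligned, annotated and counted by strand is not given in the sources used here. Deposited values are CPM: the authors scaled each library to 1000000, although the table is named for TPM. Reads were counted in fractions, in steps of a hundredth of a read, and 52.8% to 54.3% of nonzero values were whole reads (tolerance 0.02 of such a step), so a count test was not used. A total of 0 columns belonged to no sample.

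Symbols and coordinates came from GENCODE M21 (GRCm38, the same assembly as mm10) for 32029 identifiers, and 79 had no symbol. A gene was tested where 2 or more libraries reached 1 CPM, which left 15358. The model of log2(CPM + 1) in limma 3.58.1 (R 4.3.3) had 1 coefficient per day, a trend over the mean level and 4 residual degrees of freedom, with two-sided tests. Benjamini-Hochberg adjustment ran over the 15358 genes, with calls under 0.05. A fold divides one mean CPM by another, and changes on the log2(CPM + 1) scale understate the folds of low genes. The fit was run on simulated data in which few genes changed, while 80.4% of the tested genes differed between days here (limma F test). That run does not bear on the choice of scaling or on the counts reported. Lists are described by counts and medians beside those of all tested genes, with no test of a list. The alternatives were a pseudocount of 0.1, no filter, a filter of 5 CPM, median-of-ratios scaling, quantile normalization, a replicate block, a fit on the 2 compared days and leaving out each library. The members, lists and tests were chosen with earlier results of these data known. All members could be named, of which 4 autophagy genes are counted in the lists but not reported singly here, and of each pathway list up to 4 called genes, those with the largest changes in each direction in D8 against D2. Some of those are not printed. Promoters are those of RefSeq, for the 2 hydrolases with the largest rise (Ctsk and Lipa) and the 2 with the largest fall that have a window (Ctss and Ctsa). The windows of Lipa and Ctss hold no CACGTG and are not printed. Tables and figures were made in Python 3.11.15 with pandas 2.3.3 and matplotlib 3.10.9.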

Additional observations from a re-analysis of the deposited data

How the results depend on the processing

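Of the counts and gaps between lists, most kept their direction and stayed within 1.5 times (counts) or 1 SD (gaps) under the alternatives. With no filter on low values, 1 gene rose and 0 fell in D8 against D6 (limma). With median-of-ratios scaling, 4 genes rose in D6 against D4, 1 fell in D8 against D6 and 5 rose in D8 against D2. With quantile normalization, 4 rose in D6 against D4, and the hydrolase minus autophagy gap was 0.186 in D4 against D2 and -0.258 in D8 against D2. A fit on the 2 compared days called 0 falls in D8 against D6. The cause was not tested.

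Leaving out 1 library gave 8 to 10 rises and 10 to 14 falls in D4 against D2, 4 to 8 and 5 to 9 in D6 against D4, 2 to 3 and 0 to 3 in D8 against D6, and 9 to 11 and 13 to 17 in D8 against D2. The gap ranged from 0.0018 to 0.084, from -0.34 to -0.296, from -0.199 to -0.10 and from -0.327 to -0.269 in the same comparisons, and 29 to 32 genes differed between days. A library left alone on its day is assumed to vary like the others. Falls of hydrolases in D8 against D2 numbered 6 without D2 replicate 2 instead of 10, and in D6 against D4 3 without D6 replicate 1 or D6 replicate 2 instead of 6.

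Some single changes reversed. With median-of-ratios scaling the change in D8 against D2 was -0.165 for Lamp2 and -0.048 for Npc1. With quantile normalization it was 0.12 for Ctsd and -0.18 for Atg7 in D8 against D2, and 0.21 for Ctsd, 0.0285 for Lamp2 and 0.0623 for Psap in D4 against D2.

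The labels give replicate numbers but do not say that equal numbers share a culture, and deviations of same-numbered libraries had correlations across genes of 0.04 in D4 against D2, -0.10 in D6 against D4, 0.04 in D8 against D6 and 0.0046 in D8 against D2 (0.207 between D4 and D8, days not compared), so the numbers were read as names. With the replicate block, 10 genes rose and 15 fell in D4 against D2, 9 and 9 in D6 against D4, 3 and 3 in D8 against D6 and 11 and 17 in D8 against D2, and 32 differed between days. With the numbers crossed in D6 against D4, an alternative chosen after seeing the data, 8 rose and 9 fell. The counts of role groups, pathway lists and promoter groups under the alternatives were also added after seeing the data. With 2 libraries a day, precision is limited by their number.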
